A study of Homo sapiens with 6 samples.

Results

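The 10 genes described here make nitric oxide (NO), supply or compete for its substrate, or remove NO products and the inhibitors of its synthesis. They were chosen by symbol (NOS1, NOS2, NOS3, NOSIP, ASS1, ASL, ARG2, DDAH1, DDAH2 and ADH5) among the 40173 genes of the deposited count table, and the transcript rows of each gene were summed. The RNA came from HCT116, a human colon cancer line. Cells were transduced with a MOCK lentivirus or with a lentivirus for constitutive expression of the FLAG-fused CYGB coding region, and puromycin selection gave stable populations. Both groups were therefore transduced and drug-selected, although the labels give the MOCK genotype as wild type, and no untransduced cells were analysed here. Each group had 3 libraries, and nothing in the labels says whether these came from separate transductions, so the p-values measure the spread between these libraries only.

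NO is made from L-arginine by NO synthases, which oxidise arginine to citrulline with the cofactor tetrahydrobiopterin. Citrulline can be returned to arginine by argininosuccinate synthase and lyase, arginases take arginine away to ornithine and urea, and asymmetric dimethylarginine, released from methylated proteins, inhibits the synthases until it is hydrolysed. NO acts through soluble guanylate cyclase and by nitrosylation of thiols, and globins, cytoglobin among them, can oxidise it to nitrate.

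Counts assigned to genes ranged from 47193496 to 53531777 per library. The CYGB gene itself had 10 to 34 counts in the MOCK libraries and 27681 to 34935 in the CYGB libraries, as labelled. The 8 colon epithelial markers summed to 4128 to 4602 CPM (counts scaled to library size with edgeR's TMM factors) in MOCK and 4200 to 4490 CPM in CYGB, with KRT20 and VIL1 under 1 CPM throughout. The 5 endothelial markers summed to 1.83 to 2.25 CPM in MOCK and 1.02 to 2.36 CPM in CYGB, and 4 of them were under 1 CPM in every library. The 4 leukocyte markers summed to 21.2 to 22.6 CPM in MOCK and 11.1 to 27.3 CPM in CYGB, nearly all from CD68. The 5 fibroblast markers summed to 45.6 to 51.3 CPM in MOCK and 47.8 to 55.2 CPM in CYGB, nearly all from COL1A1. In bulk RNA, fewer expressing cells and less RNA per cell cannot be told apart.

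Of the 10 genes, 8 were expressed and 2 were close to absent. None of the 8 expressed genes differed between CYGB-overexpressing and MOCK cells beyond the replicate error. NOS1 and NOS2 were too low to test. With edgeR's quasi-likelihood test, 0 of the 8 tested members passed the threshold of the study's methods, an unadjusted p of at most 0.01 with a ratio of at least 2 or at most 0.5, against 0.565% of all 19987 genes tested. Likewise 0 of 8 had a Benjamini-Hochberg adjusted p under 0.05, against 0.055% of all genes, and 0 of 8 had an unadjusted p under 0.05, against 4.54% of all genes. DESeq2 and edgeR's exact test also called 0 of the 8. Fold changes were between -0.25 and 0.31 on the log2 scale, with a median of 0.02 beside -0.01 over all genes tested. The 95% interval of every tested member lay inside a 2-fold difference in either direction, the widest being that of ARG2.

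Levels were compared between genes per transcript length, as CPM per kilobase of transcript. ADH5 and NOSIP stood highest, at 78.3 to 109 and 71.2 to 88.0 over the 6 libraries, and their ranges overlapped. ASS1 (41.1 to 54.2) came next, just above ASL (33.5 to 40.3). DDAH2 (18.7 to 31.1) and NOS3 (17.7 to 26.7) overlapped each other. DDAH1 (12.2 to 14.5) and ARG2 (4.61 to 8.22) followed without overlap. NOS1 and NOS2 were far lower, with a mean of 0.08 and 0.02 in MOCK and 0.07 and 0.01 in CYGB. Each row was divided by its own length before summing, so short rows of NOS3 and NOS1 weigh more per count. In CYGB replicate 3, 6 counts on the 527-base row of NOS1 gave 0.213. In CYGB replicate 1, 4 counts on its 12283-base row gave 0.0065. The full-length row of NOS3, ENST00000297494 (4388 bases), held 33.9% of NOS3 counts. The NOS3 rank therefore does not describe full-length transcripts. That row stood at 5.25 to 13.0 CPM before division by length, a scale that cannot be set beside the ranges above.

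**Figure D1:**
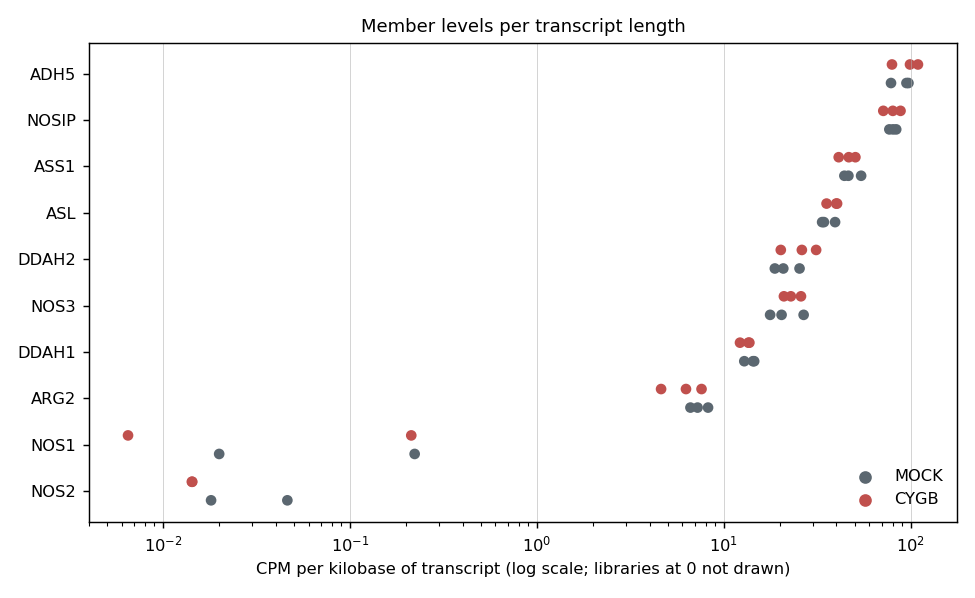
Level of each member in CPM per kilobase of transcript (horizontal log axis) with 1 point per library, MOCK in gray and CYGB in red. Levels are sums over rows, so short rows of NOS3 and NOS1 weigh more per count than the longest row of each. The 8 expressed genes span 4.61 to 109 and the groups intermingle for each, while NOS1 and NOS2 stay at or below 0.222, with libraries at 0 not drawn.

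Of the 3 NO synthases, only NOS3 was expressed at a level that could be tested, and it made up 98.4 to 99.8% of the counts of the 3 genes in each library. NOS1, the neuronal synthase (ENSG00000089250, chromosome 12 of GRCh38 from 117208142 to 117452170, minus strand), had in replicate order 17, 13 and 0 counts in MOCK and 4, 0 and 6 in CYGB. NOS2, the inducible synthase (ENSG00000007171, chromosome 17 from 27756766 to 27800499, minus strand), had 0, 4 and 10 counts in MOCK and 3, 3 and 0 in CYGB. Both genes had a library without a count in each group. A count of 0 allows up to 3 counts, or 0.0560 to 0.0636 CPM depending on the library, for counting error alone. Neither gene passed edgeR's expression filter, so no fold change is given, and a difference between groups was not detectable at this depth. For NOS2, 3 pseudogene copies in the table held 31 counts against the 20 of NOS2 itself, so its few counts are uncertain.

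NOS3, the endothelial-type synthase (ENSG00000164867, chromosome 7 from 150990995 to 151014588, plus strand), was present in all libraries although the endothelial markers were near 0. It stood at 22.6, 26.8 and 26.0 CPM in MOCK and 28.1, 27.0 and 30.4 CPM in CYGB. All 3 CYGB libraries were above the MOCK libraries, but the closest pair differed by less than 1 CPM. Groups that did not overlap were found for 11.0% of all genes tested and for 1 of the 8 members, NOS3. The log2 fold change was 0.18 (standard error, SE, 0.12, 95% interval -0.11 to 0.47, edgeR adjusted p = 0.963), so the difference was within the error.

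The deposited table divided NOS3 counts between a full-length and several partial transcripts. ENST00000297494, with 27 exons and 3609 coding bases, held 620, 395 and 300 counts in MOCK and 263, 580 and 624 in CYGB, or 33.9% of NOS3 counts over all libraries. ENST00000477227, a 1111-base processed transcript from the 3′ end, held 43.4%, with 201, 697 and 597 counts in MOCK and 745, 626 and 700 in CYGB. None of the 962 windows of 150 bases in that row was unique to it within the gene, so its counts depend on how reads were divided among rows, which is not given in the sources used here. In MOCK replicate 1 the full-length row held 58.0%, and neither row separated the groups. ENST00000475017, a shorter coding transcript, had 393 counts in MOCK replicate 3 and 368 in CYGB replicate 1 but 2 to 9 in the other 4 libraries.

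The 3′ end of NOS3 overlaps ATG9B on the opposite strand, with 786 exon bases shared between the genes. Of the 1111 bases of ENST00000477227, 742 lie in ATG9B exons. ATG9B had 248 to 342 counts per library, but whether the counting used strand is not given in the sources used here, so reads of the pair cannot be told apart there. The 3 NOS3 rows that share no base with ATG9B held 21.0% of NOS3 counts, with 202, 299 and 416 counts in MOCK and 391, 147 and 266 in CYGB, and there the groups overlapped. With protein coding rows alone the log2 fold change of NOS3 was 0.06. The main coding row, ENST00000297494, shares 757 of its 4388 bases with ATG9B exons, so this value is not free of the overlap.

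NOSIP, a ubiquitin ligase that binds NOS3 and NOS1 and affects where they sit in the cell (ENSG00000142546, chromosome 19 from 49555711 to 49590262, minus strand), stood at 111, 99.7 and 89.8 CPM in MOCK and 99.7, 90.5 and 112 CPM in CYGB. The groups covered the same range. Its log2 fold change was 0.01 (SE 0.12, interval -0.28 to 0.31).

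NOSIP counts were spread over 3 rows in every library. The coding transcripts ENST00000339093 and ENST00000596358 held 29.2 to 43.4% and 19.0 to 34.8% of the counts per library, and the retained intron ENST00000598820 held 26.8 to 39.8%. A minor coding row, ENST00000598544, was lower in CYGB than in MOCK in all libraries. It had 29, 23 and 23 counts in MOCK and 12, 5 and 6 in CYGB, which is 0.32% of NOSIP counts. Its log2 fold change was -1.70 (SE 0.48, edgeR quasi-likelihood adjusted p = 1), short of the threshold of the methods. It passed that threshold with DESeq2 (adjusted p = 0.171) and with edgeR's exact test (adjusted p = 0.370). This row was named because it had an unadjusted p under 0.05, after its values were seen.

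**Figure D2:**
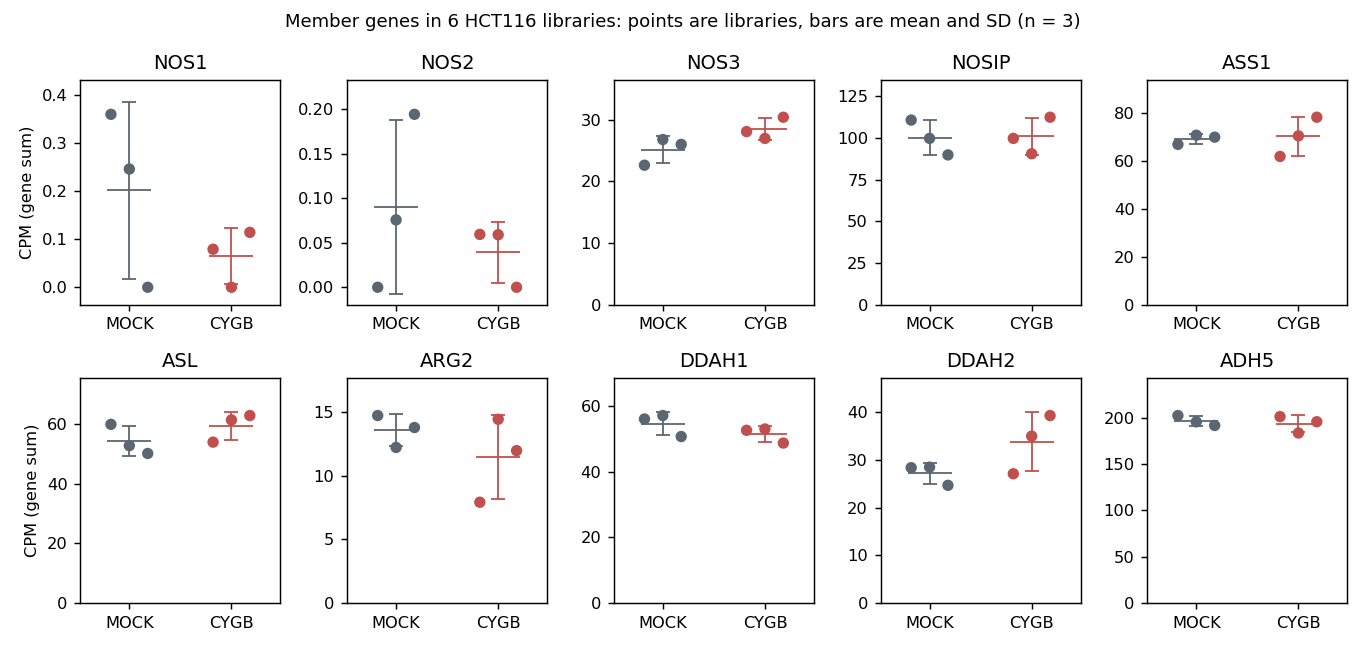
CPM of each member gene (vertical linear axis, a separate scale per gene) in the 3 MOCK and 3 CYGB libraries, with 1 point per library and the mean and SD of each group. NOS3 is the only tested gene whose groups do not overlap (22.6 to 26.8 against 27.0 to 30.4 CPM), and among the tested genes ARG2 and DDAH2 have the widest CYGB spread relative to their level.

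The citrulline-recycling pair was well expressed. ASS1, which joins citrulline to aspartate (ENSG00000130707, chromosome 9 from 130444929 to 130501274, plus strand), stood at 66.9, 70.7 and 69.9 CPM in MOCK and 61.8, 70.4 and 78.2 CPM in CYGB. The CYGB libraries lay on both sides of the MOCK libraries, and the log2 fold change was 0.02 (SE 0.11, interval -0.25 to 0.29). Its 8 pseudogene copies in the table held 2.09% as many counts as ASS1.

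Under the stable sum of ASS1, its 2 main rows swung between libraries. ENST00000352480 had 3033, 2935 and 669 counts in MOCK and 825, 1334 and 3740 in CYGB. ENST00000372393 had 59, 134 and 2828 counts in MOCK and 2227, 2153 and 261 in CYGB. MOCK replicates 1 and 2 and CYGB replicate 3 were thus on the first row and the other 3 libraries mostly on the second, across the groups. The rows have the same coding length of 1236 bases and differ only outside it, by a 62-base exon and by stretches of 59 and 19 bases at the ends. Of the 150-base windows of these rows, 4.66% and 4.72% occurred in no other row of the gene. How the counting chose a row is not given in the sources used here, and its part in the swing was not tested.

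ASL, which splits argininosuccinate into arginine and fumarate (ENSG00000126522, chromosome 7 from 66075798 to 66093558, plus strand), stood at 59.8, 52.7 and 50.1 CPM in MOCK and 53.9, 61.3 and 62.8 CPM in CYGB. Only CYGB replicate 1 lay within the MOCK range, and the log2 fold change was 0.13 (SE 0.11, interval -0.15 to 0.41). AC068533.4, which shares 563 exon bases with ASL on the same strand, had 0 to 90 counts, and the pseudogene copy held 1.61% as many counts as ASL.

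The division of ASL counts among its coding rows was steadier than that of ASS1. ENST00000304874, with all 1392 coding bases, held 21.2 to 23.4% of ASL counts in each library. ENST00000395331, with 1332 coding bases, held 47.3 to 65.1%, and ENST00000380839, with 1314 coding bases, held 2.95 to 14.5%.

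ENST00000395331 stood at 27.9, 31.1 and 28.7 CPM in MOCK and 35.4, 32.6 and 32.5 CPM in CYGB. All CYGB libraries were above all MOCK libraries. The log2 fold change was 0.20 (SE 0.15, interval -0.18 to 0.58, edgeR adjusted p = 1), within the error. Groups did not overlap for 4 of the 46 tested member rows and for 10.4% of all 66609 rows tested. The other 3 rows, ENST00000598544 of NOSIP, ENST00000468293 of NOS3 and ENST00000512659 of ADH5, were lower in CYGB, held at most 1.29% of their gene's counts and are named after their values were seen.

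ARG2, the mitochondrial arginase that competes for arginine (ENSG00000081181, chromosome 14 from 67619798 to 67651720, plus strand), was the least expressed of the tested members. It stood at 14.7, 12.2 and 13.8 CPM in MOCK and 7.92, 14.4 and 12.0 CPM in CYGB. CYGB replicate 1 was low, and the other libraries overlapped. The log2 fold change was -0.25 (SE 0.24, interval -0.83 to 0.34) and became -0.04 without CYGB replicate 1 and -0.45 without CYGB replicate 2. One row, ENST00000261783, held 90.3 to 96.3% of its counts in each library. ARG2 shares 904 exon bases with VTI1B on the opposite strand, which had 4012 to 4865 counts per library against 400 to 734 for ARG2. Whether the counting used strand is not given in the sources used here, so reads in the shared bases cannot be told apart.

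**Figure D3:**
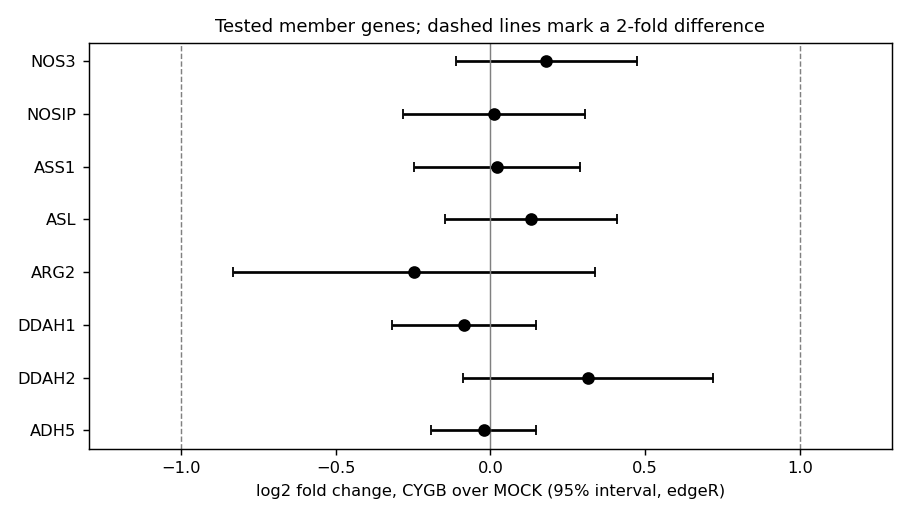
Log2 fold change (CYGB over MOCK, horizontal axis) of the 8 tested members with 95% intervals from edgeR's quasi-likelihood fit. Every interval includes 0 and stays inside the dashed lines at a 2-fold difference, the widest being ARG2 at -0.83 to 0.34.

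DDAH1 and DDAH2, paralogous dimethylarginine hydrolase family members, had log2 fold changes of opposite sign, both within the error. DDAH1 (ENSG00000153904, chromosome 1 from 85318481 to 85578363, minus strand) stood at 56.0, 57.1 and 50.7 CPM in MOCK and 52.6, 53.0 and 48.7 CPM in CYGB. The groups overlapped, and the log2 fold change was -0.09 (SE 0.10, interval -0.32 to 0.15).

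DDAH1 was the one expressed member whose counts were given almost wholly to 1 row. ENST00000284031, which starts at 85465140, held 99.6 to 100% of DDAH1 counts in each library. The rows that start farther upstream, at 85578250 and 85578363, had 20 and 0 counts in all, and the row that starts downstream, at 85404528, had 2. The table of RefSeq promoter windows used here (GRCh38.p14, 300 bases, from 250 before to 50 after a start) matched 9 of the 10 members, all but NOS2. The DDAH1 window at the start in use held 42 CG dinucleotides and the other 2 DDAH1 windows held 6 and 4, where the median of all 35116 windows was 14. The ratio of observed to expected CG was 0.99 at the start in use and 0.34 at each of the other 2, with a median of 0.58 over all windows. At the start in use it was above 90.9% of all windows. Windows of NOS3, also expressed, held 11 and 12 CG dinucleotides with ratios of 0.34 and 0.36. Their starts, at 150993782 and 150993804, are not that of the full-length row, which starts at 150990995. The row that starts at 150993804, ENST00000484524, had 12 counts in all, so these windows are not those of a start in use. The NOS1 window, of a gene close to absent, had a ratio of 0.33. Its start, at 117309410, is not that of either NOS1 row, at 117361802 and 117452170. Ratios were 0.63 to 1.10 for ADH5, ASL, ASS1, ARG2 and NOSIP and 0.35 to 0.87 for DDAH2. A link between CG content and start use was not tested.

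The DDAH1 windows at the start in use and at the downstream start are shown to compare a start that held nearly all counts with one that held almost none. Each is given up to the first annotated exon base or RefSeq start, with CG dinucleotides in capitals.
DDAH1 start in use (chr1:85465160-85465409, GRCh38.p14, minus strand): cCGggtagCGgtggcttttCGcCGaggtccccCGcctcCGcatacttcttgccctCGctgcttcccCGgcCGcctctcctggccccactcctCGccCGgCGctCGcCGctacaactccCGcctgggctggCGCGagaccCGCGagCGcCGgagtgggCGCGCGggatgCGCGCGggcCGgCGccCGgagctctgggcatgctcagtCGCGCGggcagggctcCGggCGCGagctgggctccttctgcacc
DDAH1 downstream start (chr1:85404529-85404756, GRCh38.p14, minus strand): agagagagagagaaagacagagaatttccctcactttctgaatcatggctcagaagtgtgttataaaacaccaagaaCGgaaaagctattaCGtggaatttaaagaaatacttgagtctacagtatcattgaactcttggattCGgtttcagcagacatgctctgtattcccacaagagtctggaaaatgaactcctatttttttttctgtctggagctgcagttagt

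These stretches held 36 and 3 CG dinucleotides in 250 and 228 bases. The counts do not measure binding or methylation at these starts.

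DDAH2 (ENSG00000213722, chromosome 6 from 31727038 to 31730617, minus strand) had the largest log2 fold change of the tested members. It stood at 28.3, 28.5 and 24.7 CPM in MOCK and 27.1, 35.0 and 39.3 CPM in CYGB. CYGB replicates 2 and 3 were above all MOCK libraries and CYGB replicate 1 was within them. The log2 fold change was 0.31 (SE 0.17, interval -0.09 to 0.72, edgeR adjusted p = 0.963). Without CYGB replicate 1 it was 0.45 with an unadjusted p of 0.0194, which did not pass the threshold of the methods. The first exon of one DDAH2 row, ENST00000375792, shares 37 bases with CLIC1 on the same strand, which had 7471 to 11334 counts per library.

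DDAH2 counts moved among 6 rows from library to library. ENST00000375787 had 0, 935 and 746 counts in MOCK and 0, 464 and 0 in CYGB. ENST00000375792, with the same 855 coding bases, had 30, 40 and 217 counts in MOCK and 762, 623 and 217 in CYGB. ENST00000480913, a processed transcript, had 333, 0 and 0 counts in MOCK and 191, 301 and 343 in CYGB. No row held the lead in all libraries of either group. ENST00000375792 gave a log2 fold change of 2.49 (SE 0.96, edgeR adjusted p = 1, unadjusted p under 0.05), with MOCK replicate 3 and CYGB replicate 3 at the same count. This is the row that overlaps CLIC1, whose part in its counts was not tested. ENST00000375789 ranged over the libraries from 75 to 697 counts, ENST00000416410 from 70 to 508 and the retained intron ENST00000469963 from 47 to 267.

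ADH5, the S-nitrosoglutathione reductase and class III alcohol dehydrogenase (ENSG00000197894, chromosome 4 from 99070978 to 99088801, minus strand), had the lowest coefficient of variation of the tested members. It stood at 202, 196 and 192 CPM in MOCK and 201, 184 and 196 CPM in CYGB, which is 3.53% over the 6 libraries. The groups overlapped, and the log2 fold change was -0.02 (SE 0.07, interval -0.19 to 0.15). For the sum over all rows of ADH5, that interval was a ratio of 0.875 to 1.11. Its 2 pseudogene copies in the table held 0.813% as many counts.

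The main coding row of ADH5 was less steady than the sum. ENST00000296412 had 6617, 9868 and 7313 counts in MOCK and 4807, 6360 and 9264 in CYGB, or 47.3 to 95.5% of ADH5 counts. The interval of this row was wider than that of the sum, a ratio of 0.544 to 1.35. The retained intron ENST00000512621 had 2434 counts in MOCK replicate 1 and 4277 in CYGB replicate 1 but 93 to 532 in the other 4 libraries. A second retained intron, ENST00000508511, held 2.55 to 13.4%. With protein coding rows alone the log2 fold change of ADH5 was -0.21.

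**Figure D4:**
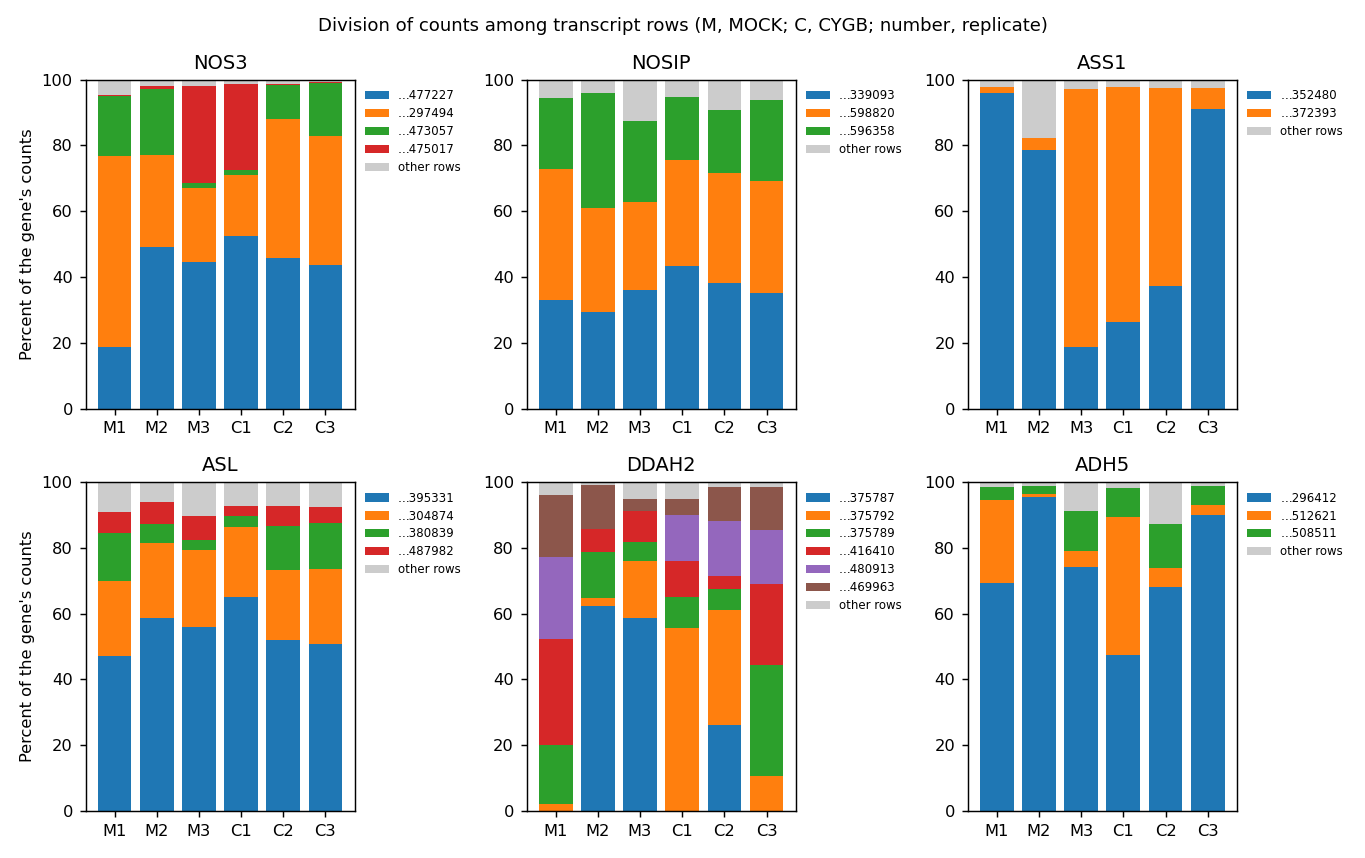
Share of each gene's counts (vertical axis, percent) on its transcript rows in the 6 libraries, for rows with at least 5% of the gene's counts (colours) and all others (gray). ASS1, DDAH2, NOS3 and NOSIP change their main row between libraries of the same group, NOSIP among rows of similar share, while ASL and ADH5 keep theirs.

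Over the 8 tested members the gene sums had a median coefficient of variation of 9.37% across all libraries, beside 22.6% over all genes tested. All genes tested include genes with few counts and were not matched to the members by level. The 24 rows of the tested members that held at least 5% of their gene's counts had a median of 55.8%. Their range was 5.16% (DDAH1) to 149% (NOS3). Of the 73 member rows, 46 were tested. With edgeR's quasi-likelihood test 0 of 46 passed the threshold of the methods, against 1.02% of all rows tested, and 0 of 46 had an adjusted p under 0.05, against 0.015%. An unadjusted p under 0.05 was found for 2 of 46, those named above in NOSIP and DDAH2, against 3.78% of all rows. DESeq2 and the exact test each called 1, the NOSIP row. The median standard error was 0.64 for tested member rows and 0.12 for tested member genes, so the row fits could miss changes that the gene sums would show.

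Beyond the members, 60 genes of the pathway in 6 lists were examined, of which 49 were tested. With edgeR's quasi-likelihood test 0 of 49 passed the threshold of the methods (0.565% of all genes) or an adjusted p of 0.05 (0.055%), and 2 of 49 had an unadjusted p under 0.05 (4.54%). DESeq2 and the exact test called 0. Signs were mixed, with 28 higher and 21 lower and a median of 0.01, beside -0.01 over all genes tested. Groups did not overlap for 3 of 49, namely PTS, SLC3A2 and SLC7A2, beside 11.0% of all genes tested.

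All 8 genes of tetrahydrobiopterin supply were tested, with a median log2 fold change of -0.07. PCBD1, which recycles the cofactor and had the highest level of the list, stood at 102, 104 and 110 CPM in MOCK and 108, 95.8 and 113 CPM in CYGB. PTS, the second enzyme of its synthesis, stood at 31.3, 30.6 and 32.4 CPM in MOCK and 27.8, 24.3 and 26.0 CPM in CYGB. All CYGB libraries were below all MOCK libraries, with a log2 fold change of -0.27 (interval -0.53 to -0.01, edgeR adjusted p = 0.963, unadjusted p under 0.05). PTS and the genes SLC3A2 and SLC7A2 below were singled out after their values were seen.

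Of 13 genes of arginine transport and use, 10 were tested, with a median of 0.06. ODC1, which turns ornithine into putrescine and had the highest level, stood at 636, 616 and 611 CPM in MOCK and 703, 598 and 604 CPM in CYGB. SLC3A2, the heavy chain that cationic and neutral amino acid exchangers need at the membrane, stood at 181, 99.5 and 175 CPM in MOCK and 285, 240 and 257 CPM in CYGB. The groups did not overlap, and the log2 fold change was 0.78 (interval 0.21 to 1.35, edgeR adjusted p = 0.963, unadjusted p under 0.05). SLC7A2, a cationic amino acid transporter, stood at 6.82, 26.4 and 19.9 CPM in MOCK and 35.4, 35.5 and 27.3 CPM in CYGB, with a log2 fold change of 0.88 (interval -0.26 to 2.03). ARG1, OTC and AGMAT were too low to test.

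All 11 NOS partner genes were tested, with a median of -0.07, and HSP90AB1, the most abundant, stood at 5444, 5634 and 5906 CPM in MOCK and 5870, 5425 and 5793 CPM in CYGB. Of the 6 genes of the NO receptor and cGMP, 3 were tested, with a median of -0.03. PDE5A, which degrades cGMP and was the highest of them, stood at 22.5, 23.2 and 22.3 CPM in MOCK and 19.2, 24.4 and 23.0 CPM in CYGB. The guanylate cyclase subunits GUCY1A1 and GUCY1B1, which form the usual NO receptor, were at or below 0.0792 CPM in every library.

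Of 12 genes of denitrosylation and NO removal, 9 were tested, with a median of 0.07. TXNRD1, the cytosolic thioredoxin reductase and the highest of them, stood at 472, 486 and 510 CPM in MOCK and 427, 491 and 483 CPM in CYGB. Of 10 genes of protein arginine methylation and dimethylarginine breakdown, 8 were tested, with a median of 0.05. PRMT1, the main source of asymmetric dimethylarginine in proteins, stood at 345, 362 and 368 CPM in MOCK and 371, 345 and 381 CPM in CYGB. Neither gene separated the groups.

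**Figure D5:**
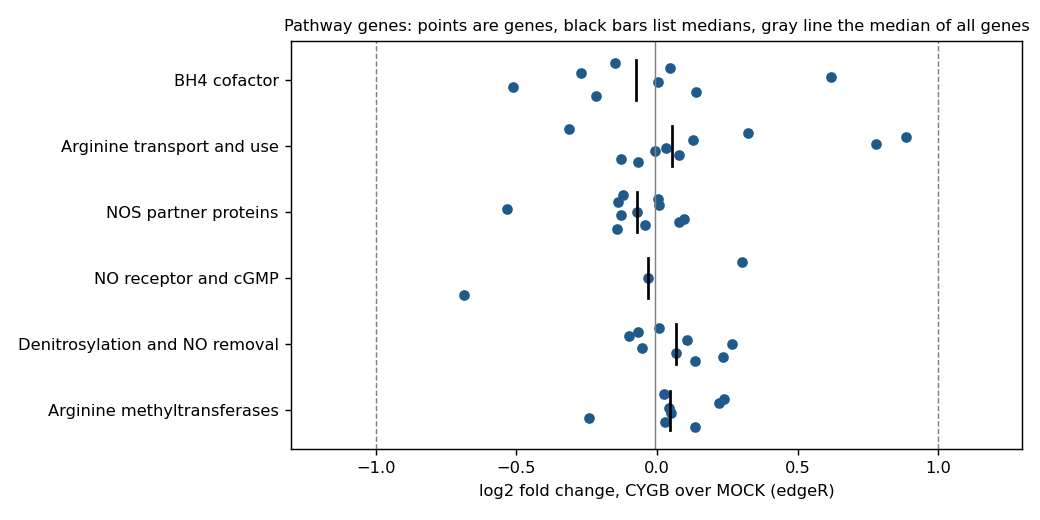
Log2 fold change (CYGB over MOCK, horizontal axis) of the 49 tested pathway genes by list, with black bars at list medians and a gray line at the median of all genes tested. List medians lie between -0.07 and 0.07, and no gene reaches a 2-fold difference.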

How the data were processed

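Paired-end reads came from 3 MOCK and 3 CYGB libraries. The values deposited by the authors are counts of reads for each transcript, not normalized. The submitters' processing notes name HISAT2, DESeq2 and the build hg19, but all 73 member rows have the positions of GENCODE 29 (GRCh38), which were used here. The counting tool is not given in the sources used here. Rows lacking a gene, 18.6 to 19.5% of each library's counts, were left out. Rows were summed per gene, kept by filterByExpr (minimum count 10), scaled by TMM and fitted with edgeR 4.0.16 (glmQLFit, glmQLFTest, R 4.3.3) over 19987 genes, and per row over 66609 rows, with Benjamini-Hochberg adjustment over each. Standard errors and intervals were derived from the quasi-likelihood F and its degrees of freedom. The biological coefficient of variation was 36.6% for genes and 78.9% for rows. Levels per length are row counts divided by library total and row length, summed over the rows of a gene.

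Libraries of 1 group differed by far more than sampling noise. The steps were tested on simulated data. All members were named, with rows holding at least 5% of a gene's counts or called, and of each pathway list the gene with the highest mean CPM and any called gene. The members and lists were chosen with earlier results of these data known. Alternatives were DESeq2's size factors, DESeq2 1.42.0, the exact test, other filters, the replicate number as a block, each library left out, rows without a gene included, and the most abundant row. Figures used matplotlib 3.10.9.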

Additional observations from a re-analysis of the deposited data

How the results depend on the processing

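The 8 tested members had 0 calls by the threshold of the methods and 0 by adjusted p under every alternative run. NOS1 and NOS2 did not pass the expression filter with all libraries and so had no value to compare with. The fit without a filter tested all 10 members and called neither (adjusted p = 0.841 for NOS1 and 0.930 for NOS2). Member rows past the threshold, 0 of 46, became 1 with DESeq2 and 1 with edgeR's exact test (NOSIP ENST00000598544), and leaving out 1 library gave 0 to 1. The row was ENST00000480913 of DDAH2 without MOCK replicate 1, ENST00000375792 of DDAH2 without MOCK replicate 3 and ENST00000598544 without CYGB replicate 1. Pathway genes past the threshold were 0 to 1 when 1 library was left out, the gene being PCBD2 without MOCK replicate 1 and GUCY1A2 without CYGB replicate 2. No member row or pathway gene reached an adjusted p under 0.05 in any of these.

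Log2 fold changes changed sign for 4 members. Leaving out 1 library gave -0.071 to 0.089 for NOSIP (negative without MOCK or CYGB replicate 3), -0.053 to 0.011 for ADH5 (positive without CYGB replicate 2) and -0.062 to 0.10 for ASS1 (negative without MOCK replicate 1 or CYGB replicate 3). With the most abundant row in place of the sum, DDAH2 became -1.80 and ASS1 became -0.19. The cause was not tested. Over all 120 alternative values 7 changed sign, and 0 passed the threshold. The alternative of protein coding rows alone was added after the data were seen.

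Same-numbered libraries did not deviate together (correlations of 0.03, 0.01 and 0.03). With a replicate block, 0 member genes, 0 member rows and 0 pathway genes were called, while calls over the whole table were 78 genes and 291 rows. With 3 libraries per group, the widest member interval reached -0.83, so differences within the printed intervals were not resolved. Counts of near-identical copies and of overlapping genes cannot be separated further with this table.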

Other observations

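Some pathway genes varied more within a group than between groups. SPR, the last enzyme of tetrahydrobiopterin synthesis, stood in replicate order at 36.7, 15.0 and 31.1 CPM in MOCK and 39.7, 8.30 and 26.7 CPM in CYGB. HSP90AA1, a chaperone that binds NO synthases, stood at 3886, 3689 and 3724 CPM in MOCK and 3174, 922 and 3710 CPM in CYGB, with CYGB replicate 2 alone far below the others. PRRG2, which starts within the upstream part of NOSIP on the opposite strand and shares no exon base with it, had 75, 57 and 58 counts in MOCK and 29, 42 and 171 in CYGB. These genes were named after their values were seen, and no cause was tested.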
